A study of Homo sapiens with 15 samples.

Results

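The starts of 9 genes of metabolism and growth that are widely used as MYC targets were examined for peaks of wild-type MYC, of a MYC mutant and of WDR5. The cells were HEK293, a line made from human embryonic kidney. The genes are CAD, ODC1, LDHA, ENO1, SHMT2, TFRC, NME1, PTMA and CDK4. A peak belonged to a gene when any of its bases lay within 3 kb of the gene's hg19 start. By this rule 30 of the 20388 peaks in 3 lists were assigned: 8 of 2527 for wild-type MYC, 5 of 690 for the mutant and 17 of 17171 for WDR5.

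The lists come from chromatin immunoprecipitation followed by sequencing (ChIP-seq), which maps the DNA that a protein occupies. In 3 groups a retrovirus had brought in MYC with a FLAG tag, either wild type (WT-MYC) or impaired in WDR5 binding (WBM-MYC), or no MYC at all (vector control), and chromatin was pulled down through the tag with M2 agarose. HEK293 cells without a retrovirus were precipitated with an antibody against WDR5 or with rabbit IgG. Each of the 5 groups has 3 independent biological replicates, 15 libraries in all, but only 1 list stands for each mapped protein. No value below therefore has a spread between replicates, and none was tested. The tag reports MYC supplied by the virus, beside the cells' own MYC, which the antibody does not see. WDR5 was mapped in cells that carried no added MYC. Whether the transduced cells were pools or single clones is not given in the sources used here. Peak lists cannot check the cell line against marker genes. No peaks from the vector or IgG controls, and no read depths, were analysed here.

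MYC pairs with MAX and binds the E-box, a short DNA motif with the core CACGTG, mostly in promoters that are already open and active. Its targets include enzymes that feed nucleotide, polyamine, glucose and serine metabolism, the receptor that brings iron into the cell, and regulators of the cell cycle. WDR5 is a scaffold of the complexes that methylate histone H3 at active promoters, and MYC binds it through a conserved segment outside its DNA-binding domain. The 9 genes were chosen by their standing as MYC targets and with their peak calls in these same lists known, so the counts below describe them and carry no weight as evidence about MYC targets in general.

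The promoter sequences of the genes are given first, to show their E-boxes. They come from RefSeq (build GRCh38.p14), which lists 250 bases before to 50 bases after a start, and they were matched by symbol. Of the 9 genes 8 matched, with 10 promoters, since ODC1 and LDHA have 2 listed starts each. SHMT2 was not in the table. Positions in these sequences are counted from the start base within GRCh38, peak positions from the start base in hg19, and nothing was converted between the builds. Whether the start base of a gene is the same in both was not tested, so these numbers do not show which motif lies inside which peak. CACGTG, which reads the same on both strands, was found in promoters of 4 of the 8 genes (CDK4, LDHA, ODC1 and NME1), and 8.77% of the 27305 genes in the table have it in a promoter. Among the 35116 promoter windows 7.26% hold it at least once, 0.664% hold it at least 2 times and 0.0940% at least 3 times.

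The promoters of CDK4 and LDHA are shown up to the start, since both hold more than 1 E-box while only CDK4 had a MYC peak. CDK4 (chr12:57752311-57752560, minus strand) has 3 E-boxes, which begin 216, 196 and 101 bases before the start. LDHA (chr11:18394313-18394562, plus strand) has 2, which begin 185 and 87 bases before its first listed start. Both runs are 5′ to 3′ on the gene's strand with CACGTG in capitals.
CDK4: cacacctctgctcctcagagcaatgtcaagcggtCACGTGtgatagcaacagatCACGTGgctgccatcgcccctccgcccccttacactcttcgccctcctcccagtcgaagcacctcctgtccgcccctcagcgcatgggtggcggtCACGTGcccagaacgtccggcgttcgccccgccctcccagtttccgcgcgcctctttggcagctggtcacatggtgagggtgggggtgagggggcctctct
LDHA: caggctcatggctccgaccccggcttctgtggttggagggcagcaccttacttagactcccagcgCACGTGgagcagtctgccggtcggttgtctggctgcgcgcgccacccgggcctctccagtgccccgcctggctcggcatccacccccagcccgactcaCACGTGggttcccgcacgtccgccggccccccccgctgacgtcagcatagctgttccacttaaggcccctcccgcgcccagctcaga

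The E-boxes of ODC1 and NME1 are shown with up to 12 bases on each side, because the MYC peaks of these genes were centred close to the start or just downstream of it. ODC1 (minus strand) has both of its CACGTG motifs in the window of its second listed start, which lies 315 bases downstream of the first. They begin 286 and 320 bases downstream of the first start (chr2:10448024-10448053 and chr2:10447990-10448019). NME1 (plus strand) has 1, beginning 34 bases downstream of its start (chr17:51153581-51153608).
ODC1 upper: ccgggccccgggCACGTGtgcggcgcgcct
ODC1 lower: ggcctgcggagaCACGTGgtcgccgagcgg
NME1: agtgctgcgaacCACGTGggtcccgggc

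The other 4 genes with a listed promoter (CAD, ENO1, TFRC and PTMA) had no CACGTG in it. CACGCG, a weaker site of MYC and MAX with the reverse complement CGCGTG, was found in promoters of 3 of the 8 genes. By window, 4 of their 10 held it, beside 11.4% of all windows. In ODC1 it read on both strands over shared bases, 209 and 207 bases before the first start, and it also occurred at LDHA in both windows and at PTMA, 9 bases before the start. CATGTG, with the reverse complement CACATG, was found at CDK4 alone, 34 bases before the start. By window, 1 of the 10 held it, beside 11.1% of all windows. A missing match says only that the letters are not in the window.

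All 9 genes had a WDR5 peak, 7 had a WT-MYC peak and 4 had a WBM-MYC peak. CAD, ODC1, ENO1 and NME1 had peaks of all 3 lists, TFRC, PTMA and CDK4 had WT-MYC and WDR5 peaks, and LDHA and SHMT2 had WDR5 peaks alone. No gene had a WBM-MYC peak without a WT-MYC peak. As a background, 17.1% of all WDR5 peaks had a WT-MYC peak within 3 kb of their centre, 4.22% had a WBM-MYC peak and 3.23% had both. Seen from WT-MYC, 87.1% of peaks had a WDR5 peak within 3 kb of their centre and 22.0% had a WBM-MYC peak. The genes were picked as MYC targets with these peaks in view, so nothing is read from the distance between their counts and the background. A gene without a peak may have been bound below a threshold that the sources used here do not give.

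**Figure D1:**
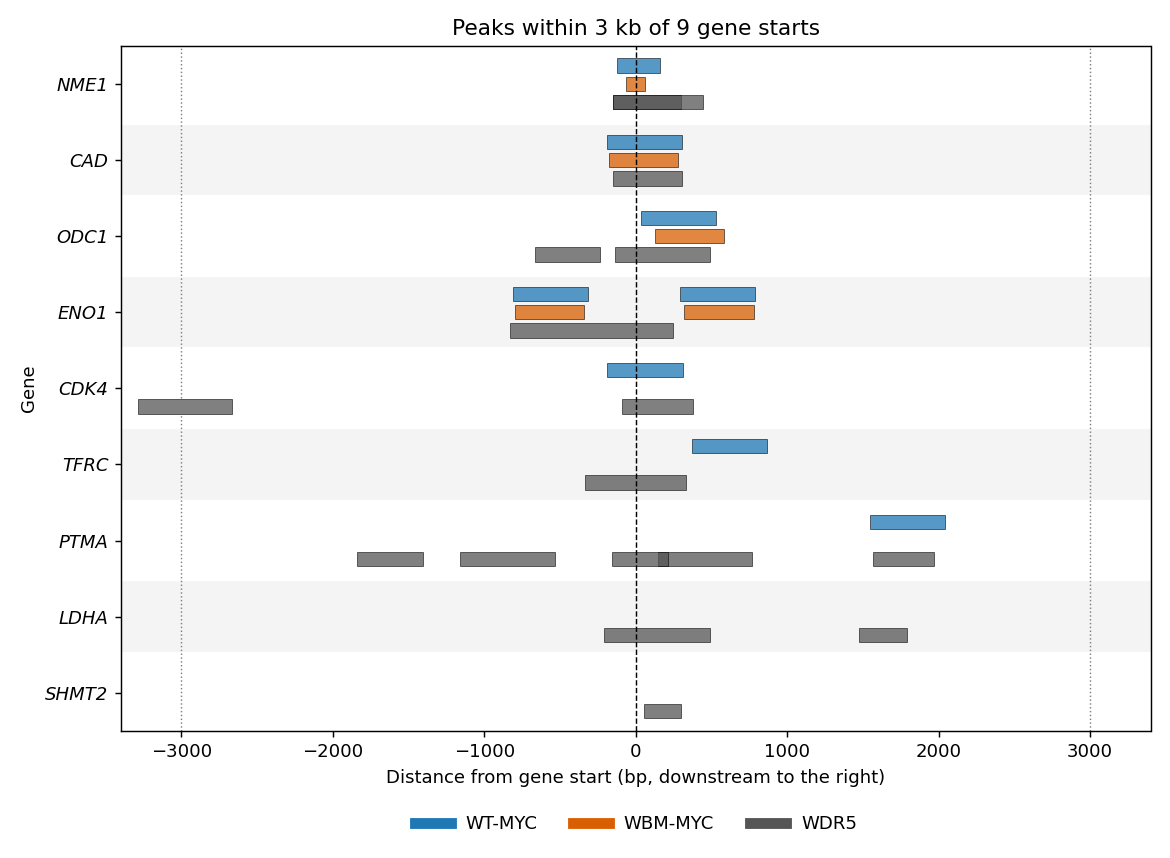
Peaks of WT-MYC (blue), WBM-MYC (orange) and WDR5 (grey) around the 9 gene starts, as bars drawn to scale from peak start to peak end. The horizontal axis is the distance from the gene start in bp, with downstream to the right (SHMT2 is drawn along the chromosome), the dashed line is the start and the dotted lines mark the 3 kb window. WDR5 peaks cover 8 of the 9 starts, while WT-MYC peaks cover 3. At ENO1 they flank the start, and at ODC1, TFRC and PTMA they lie downstream of it.

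WDR5 peaks covered more of the starts than MYC peaks. The WDR5 list is also the longest, with 17171 peaks of up to 1704 bp. The WT-MYC list has 2527 peaks of at most 496 bp and the WBM-MYC list 690 of at most 456 bp. The share of other gene starts that each list covers was not computed, since no further hg19 starts were at hand. The counts are therefore not read as particular to these genes. A WDR5 peak covered the start base of 8 genes, the exception being SHMT2, where the peak began 58 bp away, at higher positions. WT-MYC peaks covered the starts of CAD, NME1 and CDK4, and WBM-MYC peaks those of CAD and NME1. The other WT-MYC peaks nearest to a start lay 33 bp away at ODC1, 295 bp at ENO1, 372 bp at TFRC and 1546 bp at PTMA, each downstream.

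Nucleotide synthesis is represented by CAD, the enzyme that carries out the opening steps of pyrimidine synthesis, and by NME1, a kinase that balances nucleoside triphosphates. At both genes the peaks of the 3 lists were stacked over the start. The CAD peaks spanned chr2:27440069-27440564 for WT-MYC (496 bp), chr2:27440080-27440535 for WBM-MYC (456 bp) and chr2:27440105-27440561 for WDR5 (457 bp). Their centres lay 58.5, 49.5 and 75 bp downstream of the start at 27440258. The WT-MYC peak contained the WBM-MYC peak whole, and also the WDR5 peak.

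The CAD peaks stood at different depths of their lists. The WT-MYC peak was on line 280 of 2527, the WDR5 peak on line 1555 of 17171 and the WBM-MYC peak on line 553 of 690. In percent of the list these are 11.1, 9.06 and 80.1%. No source used here says what the file order means, so these are places in a file and not strengths of binding.

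NME1 stood near the top of both MYC lists. Its WT-MYC peak was on line 2 and its WBM-MYC peak on line 8. They spanned chr17:49230776-49231057 (282 bp) and chr17:49230835-49230957 (123 bp), and the start at 49230897 lay 1 bp from the centre of the WBM-MYC peak and 19.5 bp from that of the WT-MYC peak. Neither had the usual width of its list: 496 bp in 97.9% of the WT-MYC peaks, and 456 bp in 99.3% of the WBM-MYC peaks. NME1 held the narrowest of the 5 narrower WBM-MYC peaks and 1 of the 53 narrower WT-MYC peaks. Of those 5 WBM-MYC peaks 4 lay on a WT-MYC peak that was narrower too. Such peaks were frequent at the head of the files, with 9 in the first 10 lines for WT-MYC and 4 in the first 10 for WBM-MYC. At the NME1 start the WBM-MYC peak reached from 62 bp upstream to 60 bp downstream, counted from the hg19 start. The E-box begins 34 bases downstream of the RefSeq start, and whether it lies inside the peak was not tested. The readthrough transcript NME1-NME2 has the same listed start, so its promoter cannot be told apart from that of NME1.

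NME1 had 2 WDR5 peaks that began at the same base, 49230748. The shorter ended at 49231193 (446 bp, line 3862) and the longer at 49231340 (593 bp, line 17025). Both contained the WT-MYC and WBM-MYC peaks whole. The WDR5 list holds 258 start positions that are used by more than 1 peak, which involves 516 peaks or 3.01% of the list. The pair at NME1 lies over 1 region, but it was counted as 2 peaks unless the peaks of a list were merged.

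Polyamine synthesis is represented by ODC1, its first and rate-limiting enzyme. Both MYC peaks lay downstream of the start. The WT-MYC peak (chr2:10587925-10588420, line 421) ran from 33 to 528 bp downstream and the WBM-MYC peak (chr2:10587869-10588324, line 678) from 129 to 584 bp, with centres at 280.5 and 356.5 bp. The E-boxes begin 286 and 320 bases downstream of the first RefSeq start, which was likewise not matched to the hg19 start. The centres of the MYC peaks were 76 bp apart, the widest separation among the 5 overlapping WT-MYC and WBM-MYC pairs at these genes, and the peaks shared 400 bp. The WBM-MYC peak was 98.3% of the way down its list, and the WT-MYC peak 16.7%.

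ODC1 also had 2 WDR5 peaks, 1 over the start (chr2:10587962-10588590, 629 bp, line 2169) and 1 upstream (chr2:10588689-10589116, 428 bp, line 5298). The peak over the start shared 459 bp with the WT-MYC peak and 363 bp with the WBM-MYC peak. The upstream peak, 236 bp before the start, was 268 bp from the WT-MYC peak and overlapped neither MYC form. A divergent transcript, ODC1-DT, has its listed start 1401 bases upstream of that of ODC1 in GRCh38.

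Glycolysis is represented by ENO1, the enolase that makes phosphoenolpyruvate, and by LDHA, which turns pyruvate into lactate. The genes differed as far as the lists can show: ENO1 had 2 peaks in each MYC list and LDHA had none. The ENO1 peaks lay on both sides of the start at chr1:8938735. Downstream, WT-MYC spanned chr1:8937945-8938440 (line 275) and WBM-MYC chr1:8937958-8938413 (line 202), with centres 542.5 and 549.5 bp from the start. Upstream, WT-MYC spanned chr1:8939051-8939546 (line 1428) and WBM-MYC chr1:8939079-8939534 (line 169), centred 563.5 and 571.5 bp before the start. Each WBM-MYC peak lay inside the WT-MYC peak on its side, with centres 7 and 8 bp apart. Of all WT-MYC peaks 11.7% had another WT-MYC peak within 3 kb of their centre.

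The order of the ENO1 sites in the files was opposite between the MYC forms. In the WT-MYC list the downstream peak came well before the upstream peak, at 10.9 against 56.5% of the list. In the WBM-MYC list the upstream peak came first, at 24.5 against 29.3%. The single WDR5 peak at ENO1 (chr1:8938491-8939568, 1078 bp, line 2860) covered the start and the whole of the upstream MYC peaks. It ended 50 bp short of the downstream WT-MYC peak and 77 bp short of the downstream WBM-MYC peak, so the downstream site counts as MYC without WDR5 by an overlap rule. An antisense transcript, ENO1-AS1, has its listed start 149 bases upstream of that of ENO1 in GRCh38.

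LDHA had WDR5 but no peak of either MYC form. The WDR5 peak over its start (chr11:18415726-18416425, 700 bp) was on line 491, in the first 2.86% of the list, and a second (chr11:18417412-18417727, 316 bp, line 13301) was centred 1633.5 bp downstream. The second listed RefSeq start of LDHA lies 1788 bases downstream of the first. The nearest WT-MYC peak on the chromosome was 71.6 kb from the start and the nearest WBM-MYC peak 3.87 Mb. With 2 E-boxes in its promoter, LDHA was the only one of the 4 genes with CACGTG that had no WT-MYC peak. ODC1 and NME1 had both MYC forms and CDK4 had WT-MYC alone. Of the 4 genes without CACGTG in the listed window, CAD and ENO1 had both forms, and TFRC and PTMA had WT-MYC alone.

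Serine and one-carbon metabolism is represented by SHMT2, the mitochondrial enzyme that turns serine into glycine. SHMT2 had the fewest peaks of the 9 genes, a single WDR5 peak (chr12:57623414-57623657). It spanned 244 bp, the narrowest of the 17 WDR5 peaks, and stood on line 11358, or 66.1% of the way down the list. The nearest WT-MYC peak was 504 kb from the start and the nearest WBM-MYC peak 761 kb.

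Iron uptake is represented by TFRC, the transferrin receptor. Its WDR5 peak (chr3:195808704-195809370, 667 bp) was centred 5 bp from the start and stood on line 457, the earliest of the 17 WDR5 peaks. Its WT-MYC peak (chr3:195808165-195808660) lay 372 to 867 bp downstream on line 2344 of 2527, the latest of the 8 WT-MYC peaks. The peaks did not overlap and were separated by 43 bp. No WBM-MYC peak lay nearer than 12.4 Mb.

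PTMA, which encodes prothymosin alpha, a small acidic nuclear protein of proliferating cells, is known for an E-box in its first intron. Its WT-MYC peak (chr2:232574781-232575276, line 716) was the farthest from a start, at 1546 to 2041 bp downstream, and contained a WDR5 peak (chr2:232574804-232575207, 404 bp, line 6252) whole, with centres 23 bp apart. The other 4 WDR5 peaks at PTMA had no MYC. They lay over the start (373 bp, line 10967), from 147 bp downstream (624 bp, line 8041), from 536 bp upstream (624 bp, line 11691) and from 1408 bp upstream (437 bp, line 13774). With 5 WDR5 peaks, PTMA had more than any other of the 9 genes, and 0.367% of WDR5 peaks had at least 4 others within 3 kb of their centre. The peak over the start reached 213 bp downstream and overlapped the next, so the 5 peaks are not 5 separate regions. None of the 5 was in the first 36% of the list. Just outside the window PTMA had a further WT-MYC peak (chr2:232578489-232578984, line 1815), 5254 bp from the start, that overlapped a WDR5 peak on line 9363. No WBM-MYC peak lay nearer than 244 kb.

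The cell cycle is represented by CDK4, the kinase that acts with D-type cyclins at entry into the cycle. Its WT-MYC peak (chr12:58145922-58146417, line 1951) ran from 187 bp upstream to 308 bp downstream of the start. Counted from the RefSeq start, which was not matched to the hg19 start, the E-boxes begin 216, 196 and 101 bases upstream. The WDR5 peak over the start (chr12:58145853-58146320, 468 bp, line 3525) shared 399 bp with it, and their centres were 83 bp apart. A second WDR5 peak (chr12:58148895-58149518, line 16384) began 2665 bp upstream of CDK4, and MARCHF9, which is read in the opposite direction, has its listed start 2793 bases upstream of that of CDK4 in GRCh38. That peak crossed the edge of the 3 kb window, reaching 3288 bp upstream, and counted because part of it lay within 3 kb. Of the peaks wholly outside a window, the nearest to its edge was a WDR5 peak 4782 bp upstream of CAD, on line 4546. The nearest WBM-MYC peak to CDK4 was 1.28 Mb away.

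Compared peak by peak, WT-MYC and WBM-MYC peaks overlapped at each of the 4 genes that had both. Of the 8 WT-MYC peaks at these genes 5 overlapped a WBM-MYC peak, against 20.9% of the whole WT-MYC list, and all 5 WBM-MYC peaks overlapped a WT-MYC peak, against 72.0% of the whole WBM-MYC list. In 4 of the 5 pairs the WBM-MYC peak lay inside the WT-MYC peak, the exception being ODC1. Over the genome this held for 184 of 497 overlapping WBM-MYC peaks. At the usual widths of 496 and 456 bp, lying inside depends only on the distance between centres. The count is therefore not separate from the distances. The median distance between centres was 9 bp over the 5 pairs (range 7 to 76 bp), beside 33 bp over the 527 overlapping WT-MYC peaks of the list.

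By the median, WDR5 centres lay farther from MYC centres than the MYC forms lay from each other. This held both at these genes and over the whole lists. A WDR5 peak overlapped 6 of the 8 WT-MYC peaks here, against 82.9% of the list, and of the 5 WBM-MYC peaks 4 did, against 75.5%. The WT-MYC peaks without overlap were those of TFRC and of the downstream side of ENO1, which were 43 and 50 bp from a WDR5 peak. Of the 431 WT-MYC peaks without WDR5 in the whole list, 27 were within 100 bp of one (6.26%). Over the 7 overlapping pairs of WT-MYC and WDR5 peaks the median distance between centres was 83 bp, from 16.5 bp at CAD to 269 bp at ENO1, beside 71 bp over the list. Over the 5 pairs of WBM-MYC and WDR5 peaks it was 148 bp, from 25.5 bp at CAD to 277 bp at ENO1, beside 80 bp. The pairs at NME1 count 2 times, since it has 2 WDR5 peaks. They were 54 and 127.5 bp apart for WT-MYC, and 74.5 and 148 bp for WBM-MYC. The list medians take only the nearest overlapping WDR5 centre of each MYC peak. The medians for WDR5 at the genes and over the lists are thus unlike measures, and nothing is read from their difference.

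**Figure D2:**
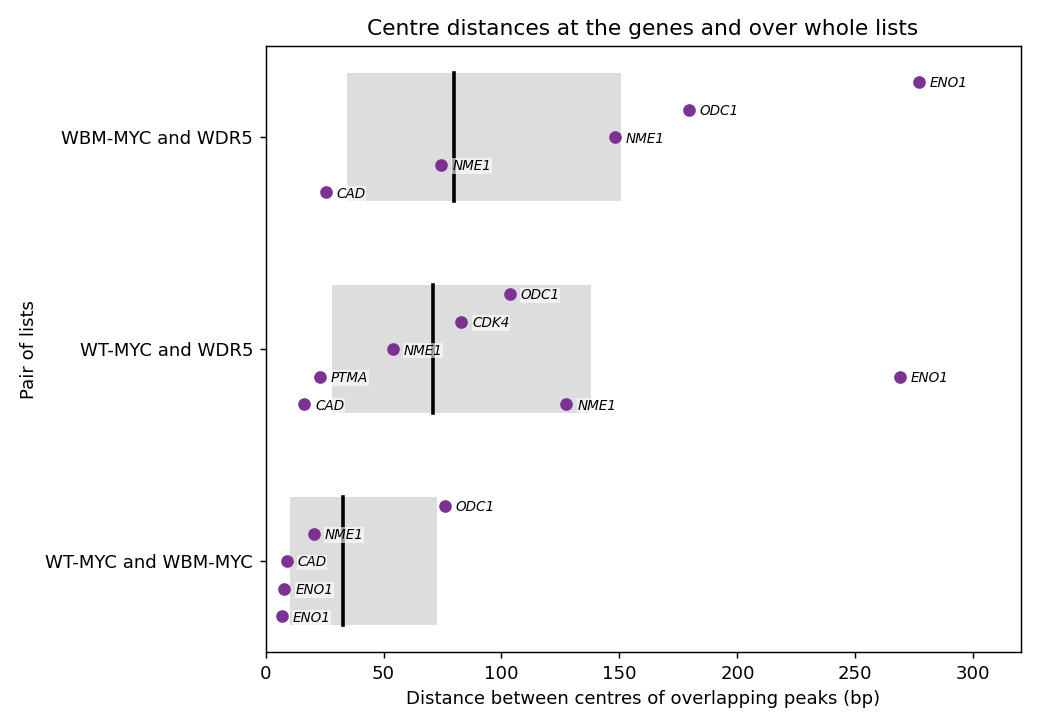
Distance in bp between the centres of overlapping peaks, by pair of lists. Each point is a pair of overlapping peaks at a named gene, the grey bar is the interquartile range over all overlapping peaks of the first-named list (nearest centre) and the black line is the median. WT-MYC and WBM-MYC centres at the genes are 7 to 76 bp apart. For WDR5 the ENO1 points at 269 and 277 bp lie above the grey bars. The ODC1 point at 179.5 bp for WBM-MYC and WDR5 does too. Each pair of lists has points both below and above its bar.

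In file order the members were spread over the whole of each list. WT-MYC peaks ranged from 0.0791% (NME1) to 92.8% (TFRC) of the list, with a median of 22.5%. WBM-MYC peaks ranged from 1.16% (NME1) to 98.3% (ODC1), with a median of 29.3%, and WDR5 peaks from 2.66% (TFRC) to 99.1% (the longer NME1 peak), with a median of 36.4%. The 4 genes with WBM-MYC had their earliest WT-MYC peak within the first 16.7% of that list, and PTMA, CDK4 and TFRC, without WBM-MYC, had theirs at 28.3, 77.2 and 92.8%. Each list was split in file order into 10 parts of the same size, its deciles. In the whole list 60.9% of WT-MYC peaks in the first decile had a WBM-MYC peak within 3 kb of their centre, against 43.1% in the second decile, 27.3% in the third, where PTMA falls, 11.5% in the eighth, where CDK4 falls, and 7.54% in the last, where TFRC falls.

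**Figure D3:**
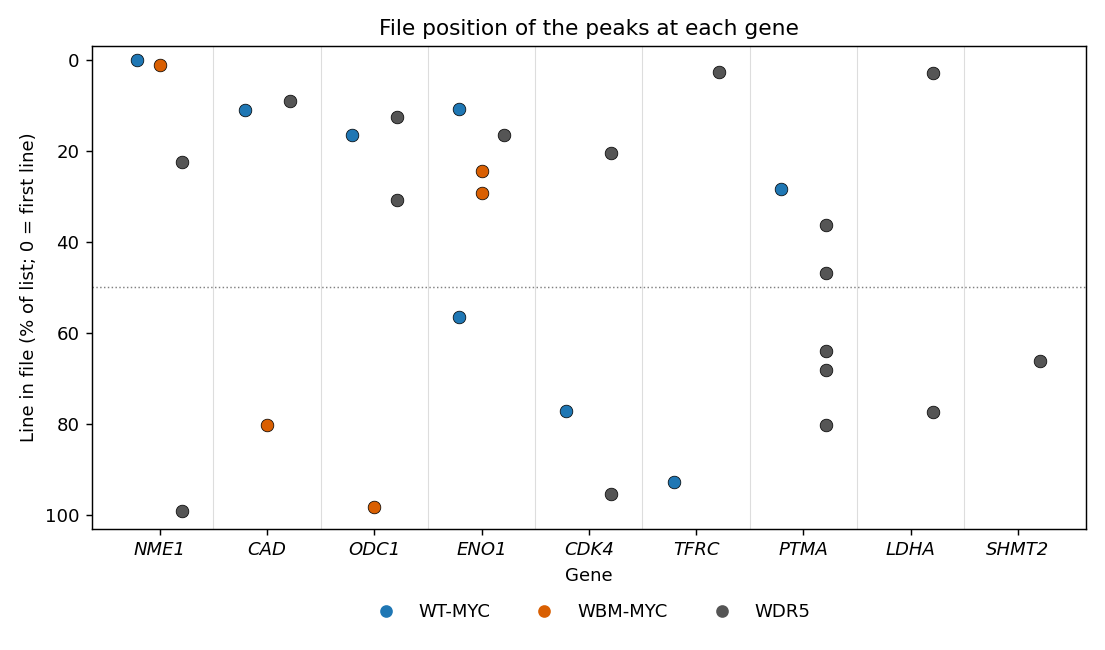
Place of each peak in its file, as the line number in percent of the list (vertical axis, first line at the top), for WT-MYC (blue), WBM-MYC (orange) and WDR5 (grey) peaks at each gene. NME1 is at the top of both MYC lists. By percent, CAD and ODC1 are early for WT-MYC and late for WBM-MYC, whose lists differ in length (2527 and 690 peaks). TFRC is early for WDR5 and late for WT-MYC.

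Genes with early WDR5 peaks differed in their MYC peaks. The earliest were TFRC (line 457), LDHA (line 491) and CAD (line 1555), all in the first decile of that list. They had WT-MYC alone, no MYC and both forms, in that order. In that decile 39.0% of WDR5 peaks had a WT-MYC peak within 3 kb and 13.3% a WBM-MYC peak. SHMT2, with its only WDR5 peak in the seventh decile, stood where 12.1% had WT-MYC and 2.15% WBM-MYC.

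**Figure D4:**
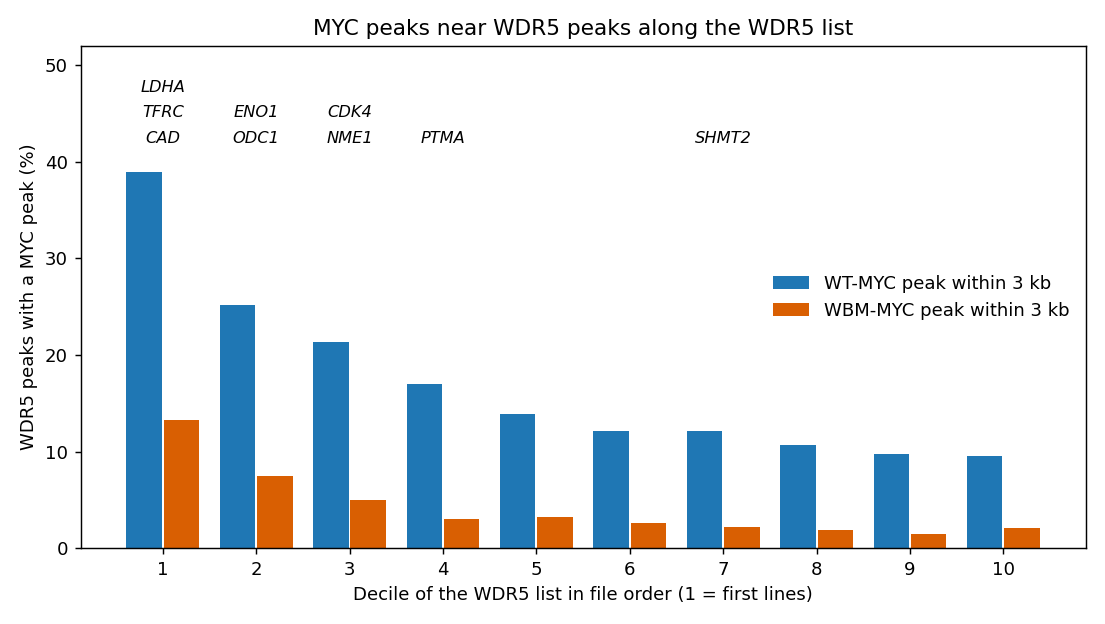
Share of WDR5 peaks (percent) with a WT-MYC (blue) or WBM-MYC (orange) peak within 3 kb of their centre, by decile of the WDR5 list in file order. Gene names stand above the decile that holds the gene's earliest WDR5 peak, and their height has no meaning. LDHA, without MYC, shares the first decile, at 39.0% for WT-MYC, with TFRC and CAD.

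Other genes of the same pathways were taken from a list of 43 genes of glycolysis, nucleotide, polyamine, serine and one-carbon, glutamine, amino acid and fatty acid metabolism and the cell cycle. Their peaks were not analysed here, since no hg19 starts were at hand. RefSeq promoters were listed for 36 of them, and 11 held CACGTG, beside 8.77% of all genes in the table (2396 of 27305). These were HK2, ALDOA and GAPDH among 10 genes of glucose transport and glycolysis, and DHODH, PPAT, PAICS and ATIC among 11 of nucleotide synthesis. They were also SRM among 3 of polyamine synthesis, MTHFD1 among 5 of serine and one-carbon metabolism, and SLC1A5 and SLC7A5, both of the 2 listed for glutamine, amino acid and fatty acid metabolism. None of the 5 cell cycle genes with a listed promoter held it, whereas CDK4 holds it 3 times. The 43 genes were picked by pathway, with earlier results of these data known. Their promoters were not matched to the other genes for base composition. Nothing is therefore read from the distance between their share and that of all genes.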

How the data were processed

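Each of WT-MYC, WBM-MYC and WDR5 had 1 list of peaks, deposited by the authors as positions (chromosome, start, end) without scores. The submitters' processing notes name CASAVA 1.8.2, Bowtie 0.12.7 and the build hg19. How peaks were called, at which threshold and against which control, and how replicates were combined, is not given in the sources used here. Starts were made 1-based.

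Gene starts (hg19) were given with the choice of genes. Peaks with any base within 3 kb of a start were assigned with Python 3.11.15, and overlap meant at least 1 bp. Overlap counts equalled those of bedtools 2.31.1. In simulated lists planted overlaps were recovered. The intervals planted without overlap were given unused chromosome names, so this check did not cover near misses. RefSeq promoters (GRCh38.p14) were searched for motifs of 6 bases on both strands. The genes and gene lists were chosen with earlier results of these data known, all 9 genes are named, and nothing was tested. Distances of 100 bp, narrow peaks, file position and containment were taken up after the values were seen.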

Additional observations from a re-analysis of the deposited data

How the results depend on the processing

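The counts were recomputed with windows of 1, 2, 5 and 10 kb, with the peak centre in place of any base, with overlap of 50% of the shorter peak, with overlapping peaks of a list merged, and with the first 50% of each list. Of 44 recomputed counts 39 stayed within 1.5 times the count in the report. The 5 that moved all came from the first 50% of each list, which drops CAD and ODC1 from WBM-MYC, CDK4, TFRC and the upstream peak of ENO1 from WT-MYC, and SHMT2 from WDR5. That left 5 genes with WT-MYC and 8 with WDR5. There, 2 genes had a WBM-MYC peak, 2 had peaks of all 3 lists, 2 WT-MYC peaks overlapped WBM-MYC, 2 WBM-MYC peaks overlapped WT-MYC and 2 overlapped WDR5. PTMA lost its WT-MYC peak at 1 kb, which left 6 genes. The median distance between WT-MYC and WDR5 centres was 93.25 bp both with the nearest centre, overlapping or not, and with merged peaks. No paired analysis was possible because there is 1 list per group and no test. Read depth is unknown, so a missing peak cannot be told from one below the threshold.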
